A study of Mus musculus with 6 samples.

Results

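The extracellular matrix genes described here are the collagen chains, the laminin chains and 9 further matrix genes (Nid1, Nid2, Hspg2, Fn1, Sparc, Tnc, Postn, Fbn1 and Lox). They were chosen by symbol: every gene named as a collagen chain, every gene named as a laminin alpha, beta or gamma chain, and the 9 named genes. This gave 64 genes (44 collagen chains, 11 laminin chains and the 9 others) of 25108 named genes in the table, and 44 of the 64 had an adjusted p-value, as did 11035 of all named genes. The cells were primary epidermal keratinocytes from the skin of wild-type C57BL/6 mouse pups on postnatal day 1 to 3, grown in medium with 0.05 mM calcium. One group (3 libraries) was transfected with miR-Control, a control small RNA, and the other (3 libraries) with pro-miR-148a, each at 200 nM, and RNA was collected after 48 h. Both groups thus carried a transfected small RNA, and the labels do not say whether the libraries came from separate cultures or pups, so the spread behind the p-values may be technical. The question put to these libraries is which transcripts change when miR-148a is raised.

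A basement membrane is a thin sheet on which epithelial cells sit. Laminin trimers of an alpha, a beta and a gamma chain polymerise at the cell surface, a network of type IV collagen forms beside them, and nidogens and the heparan sulphate proteoglycan perlecan link the layers. Basal keratinocytes hold on to this sheet through hemidesmosomes, laminin and the type VII collagen of the anchoring fibrils. The fibril-forming collagens of the dermis below, with the collagens on the surface of their fibrils, are known mainly as products of fibroblasts.

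The values come from the authors' deposited table of their own DESeq2 comparison, which has 1 row for each RefSeq transcript and no value per library. Its base mean is the mean normalised count over all libraries, control and miR-148a together, so it is a level and not a difference. Each log2 fold change comes with a standard error (SE) from the authors' fit, and the 95% intervals were computed from it. A gene was called higher or lower where the authors' adjusted p was under 0.05. Depth per library is unknown. The numerator of the fold changes is not named in the table. A microRNA lowers its target transcripts, and genes whose 3' untranslated region holds a full miR-148a seed site lay higher as deposited: the median log2 value as deposited was 0.10 in 433 tested genes with an 8mer site, 0.046 in 1129 with a 7mer-m8 site and -0.014 in 6025 with none. The sign was therefore turned, so that positive values below are higher with miR-148a. Each direction in the text rests on that reading, and all of them would turn together if it were wrong. In bulk RNA, fewer cells of a type and less RNA per cell cannot be told apart.

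The microRNA and its sites in the members are shown because a match to the seed is the usual mark of a direct target. The mature sequence is RefSeq's (GRCm38.p6), with the seed, bases 2 to 8, in capitals. The sites are from the longest 3' untranslated region of each gene in GENCODE M21, which need not be that of the transcript tested. Letters that match the seed (and the A that makes an 8mer) are in capitals.
miR-148a-3p: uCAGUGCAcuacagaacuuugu
Fbn1, 8mer: actggcccacttgTGCACTGAggttgg
Fbn1, 7mer-m8: atagatttattgaTGCACTGtaataa
Lamc3, 8mer: tatgtgtatgtgaTGCACTGAtgtgtt
Col5a2, 7mer-m8: ctaccattttgtcTGCACTGgcttaa
Col6a2, 7mer-m8: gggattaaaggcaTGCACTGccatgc
Col23a1, 7mer-m8: tgccgtaggcagcTGCACTGgggccc
Of the 44 tested members, 5 held an 8mer or 7mer-m8 site (11.4%), against 15.8% of 9879 tested genes with a usable region. These 5 are the genes listed above, and Fbn1 held both kinds. Lamc3, Fbn1, Col5a2 and Col6a2 were called lower (the sign itself was set from genes with such sites, so this is not independent of the reading), while Col23a1 had -0.25 with an SE of 0.24 (adjusted p 0.487, authors' deposited table). The other 20 of the 24 members called in either direction had no such site in the region searched. A match is a description of the letters and does not show pairing.

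The matrix genes were more often lower than higher with miR-148a. Of the 44 tested, 6 were called higher, 18 lower and 20 were not called. Of all 11035 tested genes, 33.5% were called, 16.7% higher and 16.8% lower, and in the members these shares were 54.5%, 13.6% and 40.9%. The median log2 fold change of the tested members was -0.41, beside -0.01 over all tested genes, and 61.4% of the members lay below 0, beside 51.1% of all genes. Well-measured genes are called more often, so the shares were also taken at a base mean of at least 100. There, 49.7% of 6420 genes were called, 26.4% higher and 23.3% lower, while of the 30 members 22 (73.3%) were called, 6 higher and 16 (53.3%) lower. The share called higher was thus near that of all genes and is no result about the members. No test of the difference between the members and other genes was made, since the members were chosen with results known.

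**Figure D1:**
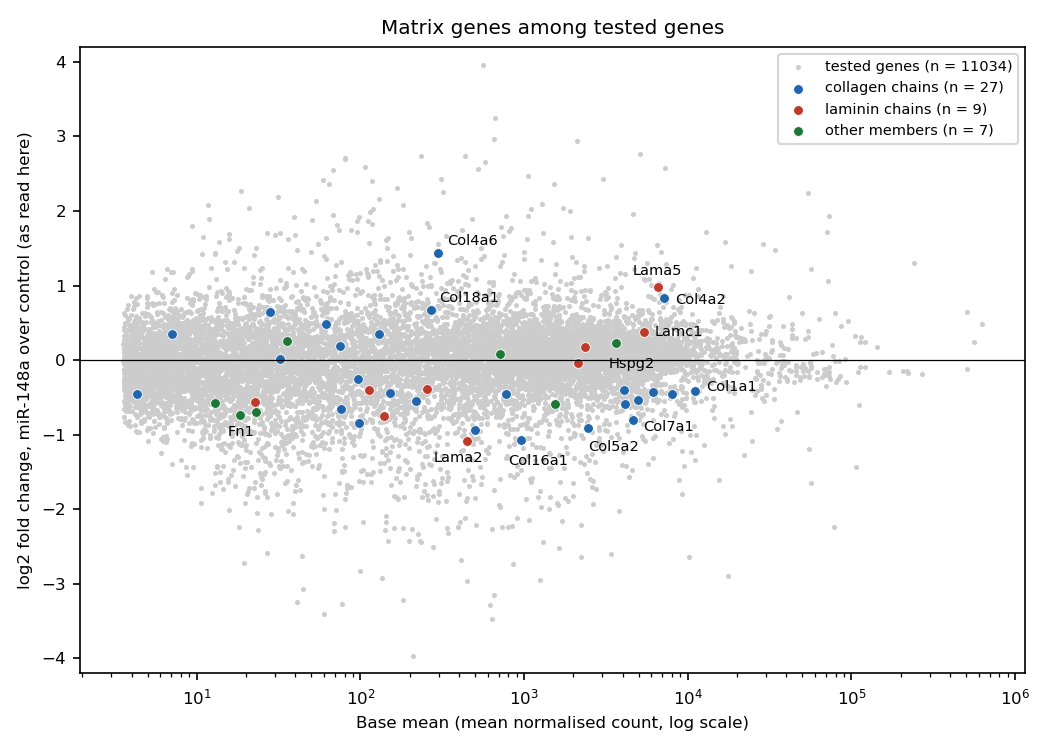
Log2 fold change (vertical axis, positive is higher with miR-148a as read here) against base mean (horizontal log axis, mean normalised count over all libraries) for 11034 tested genes in grey and 43 tested members in colour, 27 collagen chains, 9 laminin chains and 7 other members. The members lie between -1.08 (Lama2) and 1.43 (Col4a6), inside the range of all genes, from -3.97 to 3.95.

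Laminin chains were called in both directions. Of 10 tested laminin genes, 2 were higher, 3 lower and 5 not called, and at a base mean of at least 100 the shares were 22.2% higher and 33.3% lower of 9, beside 26.4% and 23.3% of all genes. These shares are near the background and are no result about laminins as a group. Lama5, the alpha chain of the main laminins of mature epithelial basement membranes, rose 1.97-fold at a base mean of 6551 (authors' deposited table: log2 value 0.98 with an SE of 0.085, adjusted p 9.30e-29). Lamc1, the gamma chain that joins it in the most common trimers, rose 1.30-fold (authors' deposited table: base mean 5384, log2 value 0.38 with an SE of 0.078, adjusted p 1.06e-05). The beta chains that complete these trimers gave smaller values. For Lamb1 the authors' deposited table gives a log2 fold change of -0.03 at a base mean of 2143, with an interval from -0.20 to 0.13 and an adjusted p of 0.814. Lamb2 had 0.18 at a base mean of 2349 (interval 0.02 to 0.34, adjusted p 0.0849, authors' deposited table). In the trimer of Lama5, Lamb1 and Lamc1 the alpha and gamma chains were therefore higher, and the interval of the beta chain reached at most 0.13.

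Lama3, the alpha chain of the laminin to which hemidesmosomes attach, fell by 0.39 on the log2 scale, 1.31-fold, at a base mean of 254 (authors' deposited table: SE of 0.16 and adjusted p 0.0461). Of the members' calls this one lay closest to the threshold, and it was lost when fold changes were centred on the median gene (adjusted p 0.0513). Its beta partner, Lamb3, was listed with a base mean of only 1.69 and no adjusted p in the authors' deposited table, and it is taken up with the transcript rows below.

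The laminin chains known from muscle, vessel and other tissues were lower or not called. Lama2, the alpha chain of muscle and nerve laminins, fell 2.12-fold (authors' deposited table: base mean 450.2, log2 value -1.08 with an SE of 0.14, adjusted p 1.16e-13). Lamc3 fell 1.68-fold (authors' deposited table: base mean 139.95, log2 value -0.75 with an SE of 0.22, adjusted p 3.62e-03). Lama4, found in vessel and mesenchymal basement membranes, had -0.39 at a base mean of 113 with an interval from -0.82 to 0.03 (adjusted p 0.171, authors' deposited table), and Lama1, at a base mean of 22.6, had -0.56 with an interval from -1.31 to 0.19. The 4 alpha chains other than Lama5 thus all had values below 0, of which Lama2 and Lama3 were called.

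Type IV collagen, the network of the basement membrane, was split by chain. Col4a6 rose 2.70-fold, the most of any member (authors' deposited table: base mean 299.7, log2 value 1.43 with an SE of 0.18, adjusted p 1.58e-14). Col4a2, one of the pair of chains present in all basement membranes, rose 1.79-fold at a base mean of 7185 (authors' deposited table: log2 value 0.84 with an SE of 0.079, adjusted p 1.54e-24). Col4a3 fell 1.57-fold at a low base mean of 76.1 (authors' deposited table: log2 value -0.65 with an SE of 0.26, adjusted p 0.0399). Col4a4, which forms a trimer with Col4a3 and Col4a5, had 0.35 in the authors' deposited table, with an interval from -0.07 to 0.77 and an adjusted p of 0.227. The interval of Col4a3, from -1.16 to -0.14, did not overlap that of Col4a4, though the difference between them was not tested. In the authors' deposited table Col4a1 (base mean 0.192) and Col4a5 (2.40) lack an adjusted p. Among the short-chain network collagens, Col8a1 fell 1.91-fold (authors' deposited table: base mean 499.9, log2 value -0.93 with an SE of 0.14, adjusted p 7.33e-10). Col8a2 (base mean 7.04) and Col10a1 (4.302) were not called.

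The genes that link the laminin and collagen layers, Hspg2, Nid1 and Nid2, were not called. Hspg2, which encodes perlecan, had a log2 fold change of 0.24 at a base mean of 3668, just missing the threshold at an adjusted p of 0.0525 in the authors' deposited table, with an interval from 0.04 to 0.43. Nid1, a nidogen that ties laminin to type IV collagen, had 0.09 at a base mean of 717 (interval -0.18 to 0.36, adjusted p 0.706, authors' deposited table). Nid2 had 0.25 at a base mean of 35.4, and its interval, from -0.42 to 0.92, is wide. Hspg2 was called higher when p-values were adjusted over 1 row per gene (adjusted p 0.0499) and when fold changes were centred on the median gene (0.0381). Col18a1, a collagen that carries heparan sulphate in basement membranes and gives rise to endostatin, rose 1.59-fold (authors' deposited table: base mean 269.9, log2 value 0.67 with an SE of 0.18, adjusted p 6.82e-04). The related Col15a1 had 0.65 at a base mean of 27.8, with an interval from -0.08 to 1.38 (adjusted p 0.193, authors' deposited table).

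Of the collagens that anchor the epidermis, Col7a1 was the only one called. It encodes the anchoring fibril chain, which keratinocytes are known to make, and it fell 1.75-fold (authors' deposited table: base mean 4629.7, log2 value -0.80 with an SE of 0.067, adjusted p 4.85e-31). This adjusted p was the lowest of any member. The transmembrane collagens Col17a1, of the hemidesmosome, and Col23a1 were not called, and Col17a1 had a base mean of 32.0 and a log2 fold change of 0.02 with an interval from -0.64 to 0.68. Col17a1 has 2 transcript rows, the other at 0, so this level is no evidence that the gene was scarce (see the transcript rows below).

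**Figure D2:**
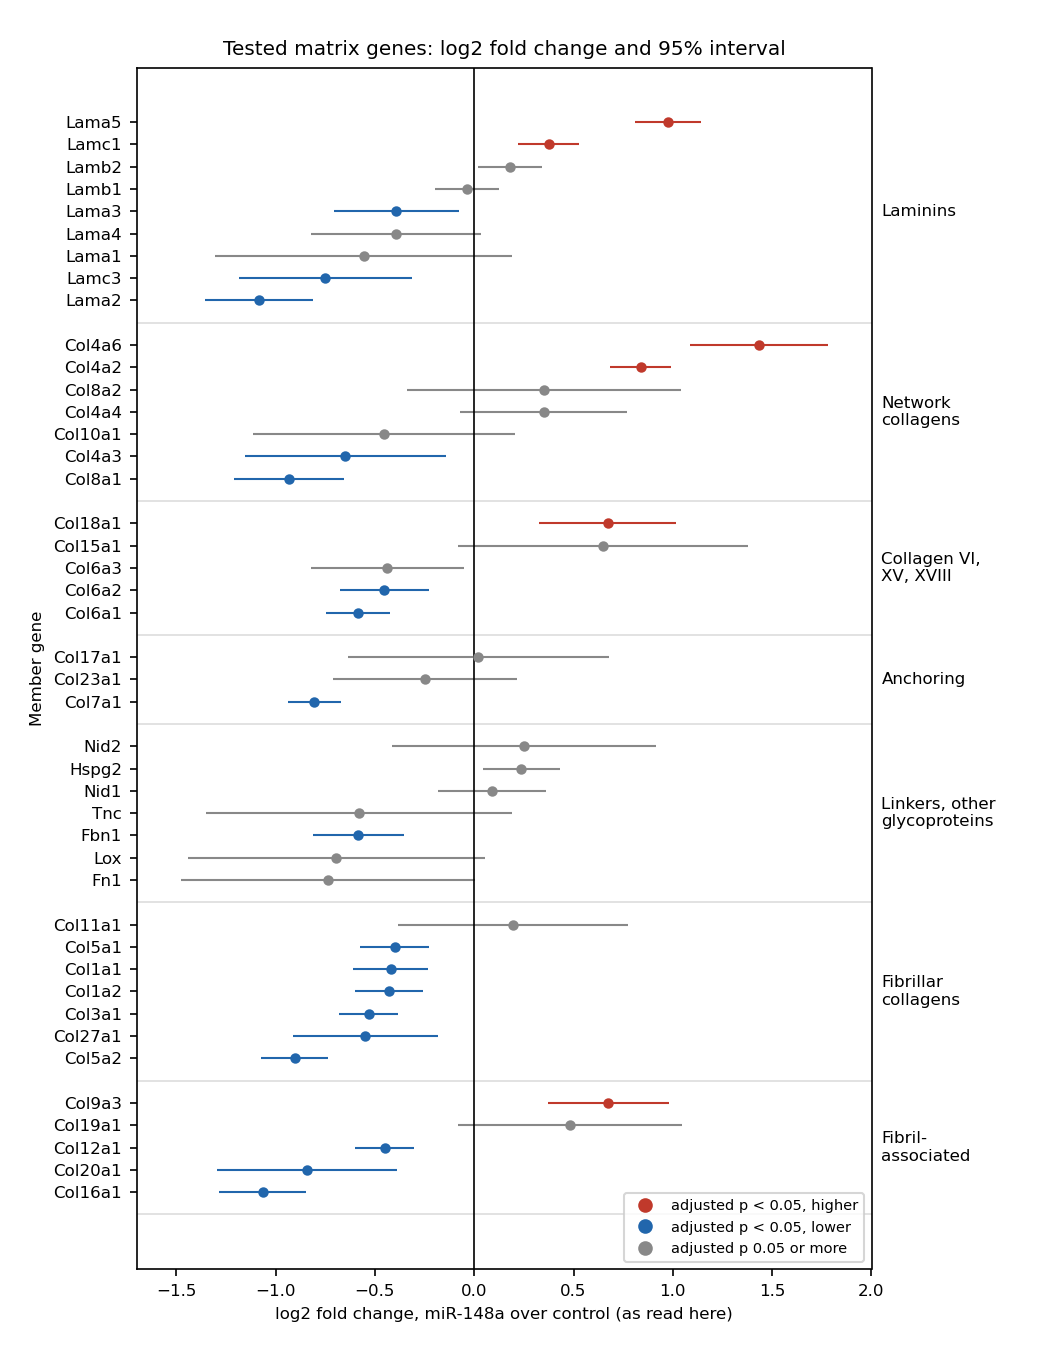
Log2 fold change (horizontal axis, positive is higher with miR-148a as read here) of 43 tested members (rows, grouped by role), as points with bars for the 95% interval from the authors' standard errors. Red points were called higher, blue points lower and grey points not called at an adjusted p of 0.05, and 6 of the 7 fibrillar collagens lie below 0, while laminins and network collagens lie on both sides.

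Most fibril-forming collagens were lower. Of 7 tested, 6 were lower (85.7%, beside 16.8% of all tested genes), none higher, and Col11a1 (base mean 75.2, interval -0.38 to 0.77) was not called. For Col1a1 and Col1a2, the chains of type I collagen, the falls were nearly equal in size. Col1a1 fell 1.34-fold (authors' deposited table: base mean 11119, log2 value -0.42 with an SE of 0.096, adjusted p 8.65e-05). Col1a2 fell 1.35-fold (authors' deposited table: base mean 6096, log2 value -0.43 with an SE of 0.087, adjusted p 7.00e-06). Col3a1, the type III chain that mixes with type I in skin, fell 1.44-fold (authors' deposited table: base mean 4995, log2 value -0.53 with an SE of 0.075, adjusted p 2.87e-11). Type V collagen starts and thins the fibrils, and its chains differed more. Col5a2 fell 1.87-fold (authors' deposited table: base mean 2465, log2 value -0.90 with an SE of 0.085, adjusted p 1.16e-24), while Col5a1 fell 1.32-fold (authors' deposited table: base mean 4065, log2 value -0.40 with an SE of 0.088, adjusted p 3.43e-05). Their intervals, from -1.07 to -0.74 and from -0.57 to -0.23, did not overlap, though the difference between them was not tested. Col27a1 fell 1.46-fold at a base mean of 219 (authors' deposited table: log2 value -0.55 with an SE of 0.19, adjusted p 0.0132).

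Of 5 tested collagens on the fibril surface, 3 were lower, 1 was higher and Col19a1 (base mean 61.7, interval -0.08 to 1.04) was not called. The shares were 60% lower and 20% higher, beside 16.8% and 16.7% of all tested genes. At a base mean of at least 100 there were 2 lower and 1 higher of 3, too few for a result about these collagens as a group. Col12a1, the most abundant of them with a base mean of 7969.8, fell 1.37-fold (authors' deposited table: log2 value -0.45 with an SE of 0.076, adjusted p 3.21e-08). Col16a1 fell 2.09-fold (authors' deposited table: base mean 957, log2 value -1.06 with an SE of 0.11, adjusted p 4.21e-20). Col20a1 fell 1.79-fold at a base mean of 98.5 (authors' deposited table: log2 value -0.84 with an SE of 0.23, adjusted p 1.38e-03). The exception was Col9a3, a chain of the cartilage type IX collagen, which rose 1.598-fold (authors' deposited table: base mean 273, log2 value 0.68 with an SE of 0.16, adjusted p 9.33e-05). The authors' deposited table lists its partner chains Col9a1 at 0 and Col9a2 at 2.51, both without an adjusted p.

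Type VI collagen forms beaded filaments beside basement membranes from an alpha1, an alpha2 and one further chain. Col6a1 fell 1.499-fold (authors' deposited table: base mean 4160.4, log2 value -0.58 with an SE of 0.082, adjusted p 1.50e-11). Col6a2 fell 1.37-fold (authors' deposited table: base mean 778, log2 value -0.45 with an SE of 0.11, adjusted p 4.26e-04). Col6a3 had -0.44 at a base mean of 151, with an interval from -0.82 to -0.05, and did not pass the threshold (adjusted p 0.0758, authors' deposited table). The intervals of the 3 chains overlapped. Of the other matrix proteins, Fbn1, the main protein of elastic microfibrils, fell 1.498-fold (authors' deposited table: base mean 1548, log2 value -0.58 with an SE of 0.12, adjusted p 6.16e-06). Fn1, Tnc and Lox had base means of 12.96 to 22.9 and log2 fold changes of -0.74 to -0.58, and none was called. They have 7, 5 and 3 transcript rows, in that order, so these levels are no evidence that the genes were scarce. At such base means the SE was 0.38 to 0.39.

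Markers of other cell types were called in both directions, differing by list. Of all tested genes 16.7% were called higher and 16.8% lower, and the lists are too small for their shares to be set against these. Of 18 fibroblast marker genes outside the members, 10 were tested and 1 was higher (10%) and 5 lower (50%), with a median of -0.35. Thy1 fell by 0.85 on the log2 scale and Twist2 fell by 0.63 in the authors' deposited table, whereas Fbln1 rose by 0.60. The summed base mean of the list was 3645, most of it from Vim (2202), and Pdgfrb, Cd34, Dlk1, Mfap5 and Zeb1 were at 0. Base means were 9.85 for Dcn and 8.96 for Pdgfra, and all 5 of the markers at 0 have 2 or more transcript rows. Of 4 tested mural and smooth muscle markers, 3 were lower and none higher (median -0.38, summed base mean of the 8 listed 6046), Acta2 falling by 0.75. The largest part of that sum came from Notch3 (2436). Among endothelial markers Kdr (2.73) and Flt1 (1.88) were higher and Vwf (-0.81) was lower in the authors' deposited table, while Cldn5, Emcn, Esam, Pecam1 and Tek were at 0. The immune list had 1 higher and 3 lower of 6 tested (summed base mean 275), and the melanocyte list 1 lower of 5 tested (15387). In the authors' deposited table the immune genes C1qa (-2.72), Lyz2 (-2.63) and C1qb (-1.07) were lower at base means of 10.6 to 43.8. Csf1r (0.76) was higher at a base mean of 188. Group values per library are not in the table, so these sums cannot be given by group. The part of other cell types in the matrix results was not tested.

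Keratinocyte markers were abundant: the 10 defining genes had a summed base mean of 1005150, of which Krt5 gave 630448. Of 9 tested, Krt5 (0.49) and Krt15 (1.64) were higher in the authors' deposited table, while Epcam (-1.21), Dsg3 (-0.39), Sfn (-0.21) and Cdh1 (-0.21) were lower, and the median of the list was -0.21. At a base mean of at least 100 the shares were 28.6% higher and 57.1% lower of 7, beside 26.4% and 23.3% of all genes. Trp63 was listed at 0 with 8 transcript rows, and Krt14 at a base mean of 40.3 with 3 rows.

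Levels compared per kilobase of transcript (43 tested members with a length in GENCODE M21) set basement membrane and fibrillar chains side by side. Among the higher levels were Col1a1 (1875), Col1a2 (1140), Col4a2 (1114), Col6a1 (1015) and Col3a1 (898), in base mean per kilobase. Lamc1 (706), Col12a1 (692), Lama5 (575), Col7a1 (503) and Col5a1 (484) followed. Spread over libraries cannot be given for these levels, so neighbours in this order are not told apart by a test. Of these 10 genes, 3 were higher (Col4a2, Lamc1, Lama5) and 7 lower. The background shares, where base means were 100 or more, were 26.4% higher and 23.3% lower. The 10 were picked for their level, and calls are more frequent at high levels. They also do not include every member at such levels. That all 10 were called is therefore no result about abundant members.

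The number of transcript rows a gene has in the table moved with its level. Of the 41 members with 1 row, 3 were listed at 0 (7.32%) and 36 were tested, with a median base mean of 299.7. Of the 23 with 2 or more rows, 12 were at 0 (52.2%) and 8 were tested, and the highest base mean was 778 (Col6a2). The same share at 0 over all named genes was 34.5% with 1 row and 42.1% with more. The chains of a single trimer were split this way in type IV collagen. Col4a2, with 1 row, had 7185, and Col4a1, with 2 rows, had 0.192. Lamb3 (2 rows) had 1.69, Sparc (2 rows) and Postn (6 rows) were at 0, and Fn1 (7 rows) had 18.3 in its 1 row above 0. How reads shared between transcripts were assigned is not stated, and its part in these values was not tested. A level near 0 for a gene with several rows is therefore no evidence that the gene was silent, and the 20 members without an adjusted p give no information on a change. These are Col2a1, Col5a3, Col11a2, Col24a1, Col6a4, Col6a5, Col6a6, Col9a1, Col13a1, Col14a1, Col22a1, Col25a1, Col26a1, Postn and Sparc, all at 0, and Col4a1, Col4a5, Col9a2, Col28a1 and Lamb3. For the 3 members with 2 tested rows, the second row gave -0.43 beside -0.45 (Col6a2), -0.65 beside -0.39 (Lama3) and 0.18 beside 0.67 (Col18a1) in the authors' deposited table. The signs were the same in each pair and only the first row passed the threshold.

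**Figure D3:**
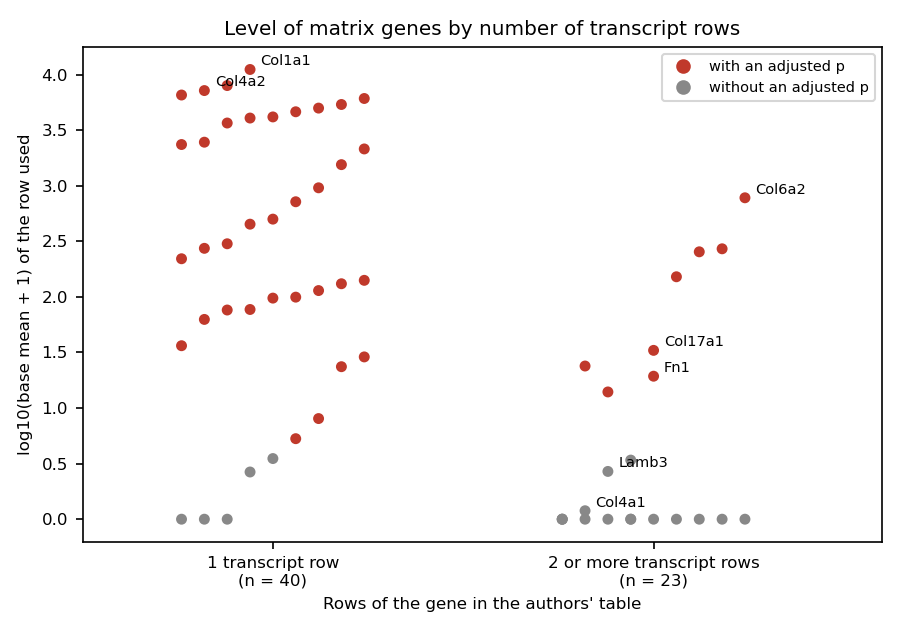
Level of 63 members (vertical axis, log10 of base mean plus 1) for genes with 1 transcript row (40 shown, left) and with 2 or more (23, right); each point is a gene and its place within a column has no meaning. Red points have an adjusted p, and the right column reaches 778 (Col6a2) while the left reaches 11119 (Col1a1).

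Several of these genes lie within 1000000 bases of each other in GRCm38.p6, with gaps from overlap to 624793 bases. Col3a1 and Col5a2 on chromosome 1 were both lower, as were Col6a1 and Col6a2 on chromosome 10. Col18a1, 326133 bases from that pair, was higher. On chromosome 2, Lama5 and Col9a3 were higher (372197 bases apart) and Col20a1, 361130 bases from Col9a3, lower. Col4a1 and Col4a2 on chromosome 8 lie head to head with overlapping annotations, as do Col4a3 and Col4a4 on chromosome 1. Exons of 17 tested members overlap another annotated gene, mostly on the opposite strand. Whether reads were counted by strand is not stated, so reads of such partners may not be told apart.

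Upstream sequence is shown for Col1a2 and Col3a1, which fell together, for Col7a1, which fell, and for Lama5, which rose. Each is the stretch before the outermost annotated start of the gene, from RefSeq's promoter table (GRCm38.p6), which holds 46 of the 64 members. Capitals mark 3 motifs on either strand, which share no letters with each other there. The first is the CCAAT box, searched by those 5 letters. The TATA box was searched as TATAAA, and the GC box, a word that Sp1 family factors bind, as GGGCGG.
Col1a2, chr6:4505368-4505617, plus strand: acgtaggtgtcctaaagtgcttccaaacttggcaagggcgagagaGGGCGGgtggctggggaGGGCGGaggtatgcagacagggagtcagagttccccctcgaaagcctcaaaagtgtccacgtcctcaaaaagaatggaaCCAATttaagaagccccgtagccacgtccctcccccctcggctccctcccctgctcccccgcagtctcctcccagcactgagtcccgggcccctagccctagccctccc
Col3a1, chr1:45311288-45311537, plus strand: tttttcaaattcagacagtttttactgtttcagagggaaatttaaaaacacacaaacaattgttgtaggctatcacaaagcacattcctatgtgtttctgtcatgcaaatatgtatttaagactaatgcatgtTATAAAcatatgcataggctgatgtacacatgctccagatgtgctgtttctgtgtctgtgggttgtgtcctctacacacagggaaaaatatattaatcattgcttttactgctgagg
Col7a1, chr9:108953336-108953585, plus strand: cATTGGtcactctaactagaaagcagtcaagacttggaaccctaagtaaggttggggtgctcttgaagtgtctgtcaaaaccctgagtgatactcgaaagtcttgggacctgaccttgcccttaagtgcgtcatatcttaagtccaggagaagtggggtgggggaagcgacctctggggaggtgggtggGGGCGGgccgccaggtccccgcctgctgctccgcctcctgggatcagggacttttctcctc
Lama5, chr2:180225905-180226109, minus strand: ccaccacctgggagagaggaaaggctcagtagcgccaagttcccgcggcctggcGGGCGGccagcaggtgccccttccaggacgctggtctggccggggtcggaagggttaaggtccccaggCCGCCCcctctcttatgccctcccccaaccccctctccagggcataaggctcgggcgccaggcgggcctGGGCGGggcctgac
The GC box was present in the upstream 250 bases of 58.7% of the members' promoters, beside 57.9% of those of tested genes, and the CCAAT box in 30.4% beside 36.1%. The TATA box was present in 13.04% of the members' promoters and 7.13% of those of tested genes. Over all 27025 promoters the shares were 32.9% (GC box), 34.5% (CCAAT box) and 12.97% (TATA box). The 46 members include untested ones, so they and the tested genes are unlike sets, and these shares are no result about the members. Col1a2 and Col3a1, which had similar log2 fold changes of -0.43 and -0.53 in the authors' deposited table, share none of these motifs. A match is a description and not a binding site.

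Genes that make, cut and cross-link collagen lay mostly below 0. Of 18 tested, 3 were higher and 10 lower (16.7% and 55.6%, median -0.47), beside 16.7% and 16.8% of all tested genes. At a base mean of at least 100 the shares were 23.1% higher and 76.9% lower of 13, beside 26.4% and 23.3% of all genes. The share called higher was near that of all genes and is no result about these genes. Tll1, a protease that removes the carboxy-terminal propeptide of procollagen, fell 2.77-fold (authors' deposited table: log2 value -1.47 with an SE of 0.25, adjusted p 4.64e-08). Adamts2, which removes the amino-terminal propeptide, fell 1.72-fold (authors' deposited table: log2 value -0.78 with an SE of 0.10, adjusted p 1.03e-13), and the cross-linking enzyme gene Loxl1 fell 1.67-fold (log2 fold change -0.74). Enzymes and helpers that act on collagen inside the cell were called in both directions: P3h2 (-0.53), Plod1 (-0.37), Plod3 (-0.33), Colgalt1 (-0.32) and Ppib (-0.20) were lower in the authors' deposited table. Mia3, which carries procollagen out of the endoplasmic reticulum, rose 1.56-fold (authors' deposited table: log2 value 0.64 with an SE of 0.073). Crtap, of the prolyl 3-hydroxylation complex, rose 1.38-fold and P4hb, a subunit of prolyl 4-hydroxylase, rose 1.19-fold in the authors' deposited table.

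Receptors and hemidesmosome genes gave 2 higher and 6 lower of 19 tested, with a median of -0.34. These shares were 10.5% and 31.6%, beside 16.7% and 16.8% of all tested genes. At a base mean of at least 100 they were 16.7% and 50% of 12, beside 26.4% and 23.3%. The hemidesmosome genes Itga6, Itgb4, Cd151 and Plec were not called, at base means of 3.87 to 51.3 and with several transcript rows each. Dst was not called either, at a base mean of 26585. Itga2, the collagen-binding integrin chain of basal keratinocytes, fell 3.76-fold (authors' deposited table: base mean 1590.3, log2 value -1.91 with an SE of 0.096, adjusted p 3.54e-85). Ddr2, a receptor kinase for fibrillar collagen, fell 2.69-fold (authors' deposited table: log2 value -1.43 with an SE of 0.10, adjusted p 2.91e-41). Cd44, the hyaluronan receptor, fell 2.17-fold in the 1 row used of its 6 transcript rows (base mean 186). Bcam, a receptor for the laminin chain that Lama5 encodes, rose 1.43-fold (authors' deposited table: log2 value 0.52 with an SE of 0.082, adjusted p 3.09e-09), and Sdc1 rose 1.16-fold. Other basement membrane and pericellular genes were divided, with 7 higher and 7 lower of 22 tested (31.8% each, median -0.15). At a base mean of at least 100 the shares were 40% higher and 46.7% lower of 15, beside 26.4% and 23.3% of all genes. Fras1, a protein below the epidermal basement membrane whose loss causes blisters in the embryo, rose 3.83-fold (authors' deposited table: base mean 779, log2 value 1.94 with an SE of 0.12, adjusted p 3.09e-56). Efemp1 rose 2.73-fold and Ltbp1, which holds latent TGF-beta in the matrix, rose 2.11-fold in the authors' deposited table. For Ltbp1 this is the 1 row used of 7 transcript rows (base mean 165). Smoc2, Bgn (biglycan) and Thbs2 fell by 0.68, 0.61 and 0.58 on the log2 scale.

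**Figure D4:**
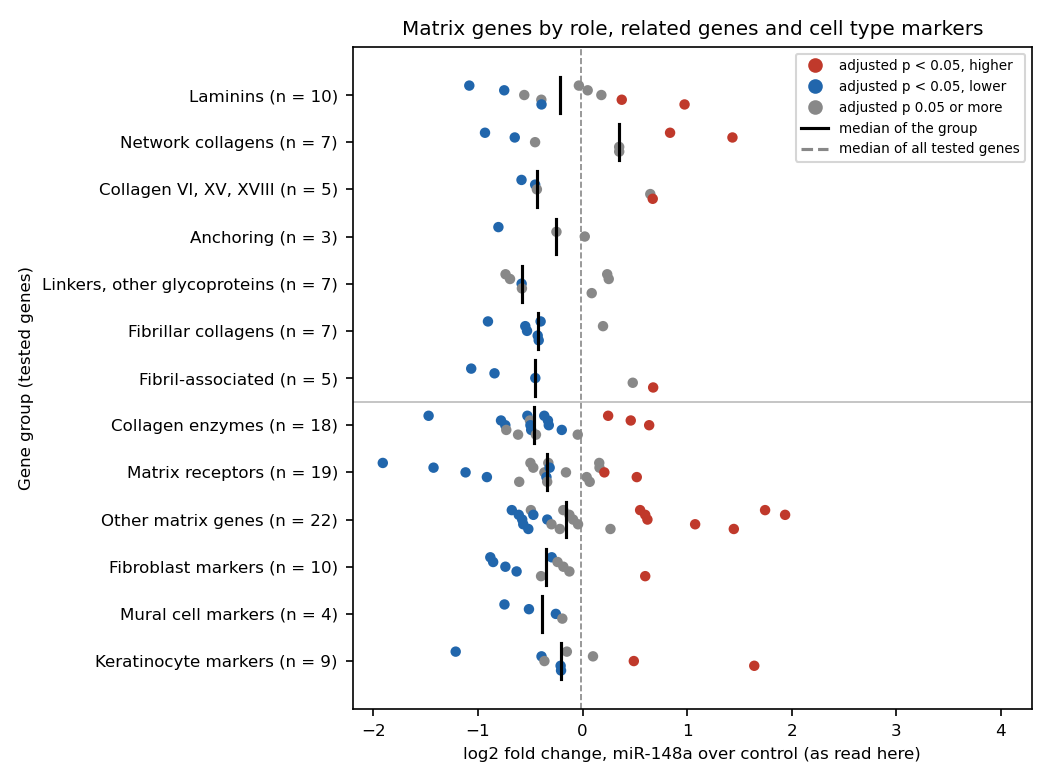
Log2 fold change (horizontal axis, positive is higher with miR-148a as read here) of each tested gene (points) in the 7 role groups of members, above the grey line, and in 3 lists of related genes and the fibroblast, mural and keratinocyte marker lists, below it; the vertical extent within a group has no meaning. Black ticks are medians of the groups plotted, from -0.58 (linkers and other glycoproteins, 0.09 over its 3 genes at base means of 100 or more) to 0.35 (network collagens), and the dashed line is the median of all tested genes, -0.01.

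In the authors' deposited table of gene ontology categories, basement membrane held 1 gene and 0 changed genes. The category of structural constituents of the extracellular matrix held 2 changed of 13 genes and collagen binding 2 of 7, each with an adjusted over-representation p of 1. Categories this small hold few of the 44 tested members, so they do not show whether the matrix genes changed as a set.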

How the data were processed

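RNA sequencing of primary mouse keratinocytes compared 3 miR-Control with 3 pro-miR-148a libraries. Per the file headers, the authors' table gives for each of 42885 RefSeq transcripts a base mean (a signal: the mean normalised count), a log2 fold change, its standard error and Wald statistic (scores), and both raw and adjusted p-values. The authors' GO table gives gene numbers and p-values per category, per the file headers. Per the submitters' processing notes, DESeq2 and mouse build mm9 were used. Aligner, counter and strand setting: not given in the sources used here. No value per library was used, so no test was run: the authors' adjusted p under 0.05 is the call. Of the transcripts, 25040 were listed at 0, and 11757 had an adjusted p, all at base means of 3.56 or more. The highest standard error was 0.39, also at low base means, as in a fit that draws fold changes toward 0; the settings of the fit are not stated.

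Transcripts were matched to symbols by RefSeq accession (42734 matched). Each gene was represented by its row with the highest base mean, and the sign was turned as described with the results. Seed sites were searched in the longest GENCODE M21 3' region of each gene, if of at least 20 bases, whichever transcript was tested. As mm9 differs from the reference, no coordinates of the table's rows are given. Python 3.11.15 and pandas 2.3.3 were used. The recentring step was tested on simulated fold changes.

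The members, the role groups and the other lists were chosen with earlier results of these data known. The text names every member called, every other member with a base mean of at least 100, the rest by name or range, and up to 3 highest and 3 lowest called genes of each related list at that base mean; 1 member is counted but not reported here, and marker genes, P3h2, Plod1, Plod3, Colgalt1, Ppib and second transcript rows were named after their values were seen. Alternatives were a threshold of 0.01, adjustment over 1 row per gene, a base mean of at least 100, centring on the median gene, every tested transcript row and, chosen after seeing the data, genes with 1 transcript row only.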

Additional observations from a re-analysis of the deposited data

How the results depend on the processing

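No paired analysis was possible because the deposited table gives no value per library, and for the same reason no library could be left out. Over the alternatives run, the number of tested members called higher with miR-148a ranged from 5 to 7 (6 as reported), the number called lower from 15 to 18 (18 as reported), and their median log2 fold change from -0.42 to -0.40. The low end of the first range comes from genes with 1 transcript row only, an alternative chosen after seeing the data, which tests fewer genes; the low end of the second comes from a threshold of 0.01. Of the named members, Lama3, Col4a3 and Col27a1 lost their calls at 0.01, Lama3 also lost its call when fold changes were centred on the median gene (adjusted p 0.0513), and Hspg2 gained one when p-values were adjusted over 1 row per gene (0.0499) and when centred (0.0381). No member changed sign under centring. The 14 tested members with base means under 100 have the wider intervals, and the 20 members without an adjusted p give nothing on a change.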
